A study of Mus musculus with 4 samples.

Results

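The regions described here are promoters of long noncoding RNA (lncRNA) genes in mouse hepatocytes before and after partial hepatectomy (PHx). Touching or overlapping peaks of the 4 scATAC-Seq libraries were merged, which gave 200890 regions. Of these, 62837 lay on an autosome and held a peak in every library. A region was kept when it lay within 1 kb of the transcription start site (TSS) of a lincRNA or antisense gene of GENCODE vM21 and farther than 2 kb from every protein-coding TSS. This left 1351 lncRNA promoter regions, 976 of them of lincRNA genes and 375 of antisense genes. They were nearest to 1289 of the 8122 autosomal genes of these types. A start site of some transcript of the gene lay inside the region in 976 cases. Apart from the called peak in every library, which itself depends on accessibility, the rule used positions only. The distance of 1 kb was a fixed limit: Gm28196 lay just inside at 997 bp (1.56 CPM at 0 h), whereas 4930440I19Rik lay just outside at 1003 bp (17.7 CPM).

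lncRNAs are transcribed by RNA polymerase II and often capped and spliced, but encode no long protein. Some act on neighbouring genes from the site of their own transcription, some organise nuclear bodies, and others are the host transcripts of microRNAs or small nucleolar RNAs, while for most the function is not known. ATAC-Seq uses the Tn5 transposase to cut accessible DNA, so it measures whether a promoter is open and not whether its RNA is made.

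Hepatocytes of normally fed male mice, operated at 10 to 12 weeks of age per the labels and slightly younger per the methods, were released by collagenase perfusion before and 48, 72 or 96 h after PHx, the surgical removal of most of the liver. The strain was C57BL/6J and no transgene was carried. At 0 and 48 h the nuclei came from 1 hepatocyte preparation each, and 0 h was undamaged liver. Each time point was 1 library, so no test between times was possible and the time point cannot be told apart from the animal or the library. Whether the 72 h and 96 h libraries held more than 1 animal was not given by the labels or methods. A level is given as CPM, the counts of a region scaled to a fixed total of the counts of a library in the 62837 shared regions, with a 95% exact Poisson interval that covers counting error only. A cut site is counted, so most fragments add 2 counts, and the interval was therefore taken on counts divided by 2.

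Total counts fell from 136949314 at 0 h to 15809769 at 96 h, over 3224 to 4256 nuclei with at least 1000 counts each. All 10 hepatocyte markers checked, such as Alb and Apoa1, lay in a shared region. These markers gave each cluster of nuclei a mean log2 level, which was set against the unweighted average of the clusters. Clusters less than 2-fold below that average were called hepatocyte-like (2453, 3630, 3933 and 3128 nuclei at 0, 48, 72 and 96 h). Values below come from these nuclei unless stated. An unnamed cluster with hepatocyte markers and low depth held 30.9% of the 0 h nuclei and was left out. In the hepatocyte-like nuclei the summed level of the 9 endothelial genes with a region was 203 to 279.9 CPM over the libraries, that of the 3 myeloid genes was 74.2, 118, 130.0 and 103 CPM, that of 4 stellate genes 75.8, 114, 145 and 132 CPM, that of 3 cholangiocyte genes 48.9, 53.5, 78.7 and 75.4 CPM, and that of the 10 hepatocyte genes was 4942 to 6736 CPM. Pairs of libraries shared 681 to 882 barcodes, of which 27 to 60 were nuclei with at least 1000 counts in both.

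To show what such promoters look like, 9 windows are printed from 250 bases before to 50 bases after the TSS, read 5′ to 3′ on the strand of the gene from the RefSeq GRCm38.p6 (mm10) genome. They were chosen because the changes or levels described below turn on them. Capitals mark a match, on either strand, to one of 15 motifs. Those of general promoter factors were CCAAT, which NF-Y binds, the Sp and KLF box GGGCGG, the TATA box TATAAA, the ETS site CCGGAAG, the YY1 site AAGATGGC and the NRF1 motif. Those of inducible factors were the CREB site TGACGTCA, the AP-1 site TGANTCA, the E-box CACGTG, the STAT site TTCNNNGAA and the TEAD site GGAATG. Those of liver factors were the HNF4 site CAAAGTCCA, the FOXA site TGTTTAC, the C/EBP site TTGCNNAA and the HNF1 motif. Matches can overlap, as those of GGAATG do with TTCNNNGAA once in Gm46545 and with CCAAT in Gm26654. The windows lie at chr16:24082641-24082940 (Gm46545, minus strand), chr19:23134650-23134949 (2410080I02Rik, plus), chr3:96566752-96567051 (Gm15441, minus), chr3:96402131-96402430 (Gm26654, plus), chr14:122406694-122406993 (Gm5089, minus), chr16:50528252-50528551 (G730013B05Rik, plus), chr2:18801769-18802068 (Carlr, minus), chr14:115042629-115042928 (Mir17hg, plus) and chr2:163541671-163541970 (Hnf4aos, minus).
Gm46545: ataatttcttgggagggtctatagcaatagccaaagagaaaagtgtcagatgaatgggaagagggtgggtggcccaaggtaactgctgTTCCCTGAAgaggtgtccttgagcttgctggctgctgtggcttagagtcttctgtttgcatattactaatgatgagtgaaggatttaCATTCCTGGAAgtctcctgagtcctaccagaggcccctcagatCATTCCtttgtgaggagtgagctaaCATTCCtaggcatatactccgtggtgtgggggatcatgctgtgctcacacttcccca
2410080I02Rik: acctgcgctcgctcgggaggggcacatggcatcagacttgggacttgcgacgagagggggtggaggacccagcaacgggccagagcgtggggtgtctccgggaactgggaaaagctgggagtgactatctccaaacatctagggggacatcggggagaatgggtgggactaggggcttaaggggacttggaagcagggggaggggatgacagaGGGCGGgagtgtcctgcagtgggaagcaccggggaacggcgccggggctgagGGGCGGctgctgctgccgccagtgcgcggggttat
Gm15441: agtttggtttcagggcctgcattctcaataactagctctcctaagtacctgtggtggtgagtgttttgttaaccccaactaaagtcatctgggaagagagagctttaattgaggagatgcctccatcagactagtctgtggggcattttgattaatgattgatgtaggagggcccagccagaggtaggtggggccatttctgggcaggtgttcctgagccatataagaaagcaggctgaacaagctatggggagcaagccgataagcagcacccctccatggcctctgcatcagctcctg
Gm26654: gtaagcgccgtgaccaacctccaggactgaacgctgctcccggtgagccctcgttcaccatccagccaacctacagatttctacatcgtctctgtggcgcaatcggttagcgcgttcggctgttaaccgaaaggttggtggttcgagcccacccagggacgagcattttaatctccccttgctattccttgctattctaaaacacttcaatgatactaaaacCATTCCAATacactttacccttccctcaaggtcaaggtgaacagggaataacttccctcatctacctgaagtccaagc
Gm5089: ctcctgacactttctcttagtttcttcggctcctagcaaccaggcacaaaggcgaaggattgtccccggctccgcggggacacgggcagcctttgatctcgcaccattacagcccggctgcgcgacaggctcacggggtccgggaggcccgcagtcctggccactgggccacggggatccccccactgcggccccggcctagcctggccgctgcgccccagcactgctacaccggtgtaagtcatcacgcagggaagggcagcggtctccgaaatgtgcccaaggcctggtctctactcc
G730013B05Rik: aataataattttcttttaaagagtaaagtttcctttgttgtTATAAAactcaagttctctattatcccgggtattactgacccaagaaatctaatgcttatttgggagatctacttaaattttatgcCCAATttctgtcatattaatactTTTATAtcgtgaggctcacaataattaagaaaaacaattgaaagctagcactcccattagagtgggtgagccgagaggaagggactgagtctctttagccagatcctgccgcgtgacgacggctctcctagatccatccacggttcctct
Carlr: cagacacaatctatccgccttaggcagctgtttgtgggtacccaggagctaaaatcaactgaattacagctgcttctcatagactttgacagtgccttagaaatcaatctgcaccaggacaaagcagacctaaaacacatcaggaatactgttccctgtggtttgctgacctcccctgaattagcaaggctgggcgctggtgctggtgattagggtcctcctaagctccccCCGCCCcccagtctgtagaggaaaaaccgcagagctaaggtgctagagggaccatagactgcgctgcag
Mir17hg: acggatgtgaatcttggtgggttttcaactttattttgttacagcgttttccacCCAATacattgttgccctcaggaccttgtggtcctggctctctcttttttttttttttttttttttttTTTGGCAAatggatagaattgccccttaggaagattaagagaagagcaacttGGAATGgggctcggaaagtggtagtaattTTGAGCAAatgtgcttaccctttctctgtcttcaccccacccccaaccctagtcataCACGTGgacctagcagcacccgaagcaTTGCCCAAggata
Hnf4aos: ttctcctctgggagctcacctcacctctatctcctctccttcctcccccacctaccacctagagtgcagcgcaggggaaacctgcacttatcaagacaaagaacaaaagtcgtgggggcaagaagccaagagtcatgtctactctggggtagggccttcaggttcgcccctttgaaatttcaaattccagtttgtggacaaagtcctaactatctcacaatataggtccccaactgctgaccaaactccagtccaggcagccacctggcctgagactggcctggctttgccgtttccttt

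The printed windows differ in base composition. Gm5089 has 22 CpG dinucleotides and a GC content of 66.0%, and 2410080I02Rik has 18 and 65.7%. Gm46545 and Gm15441 each have 1 CpG, and 61.7% of the Gm15441 window is repeat sequence. Mir17hg holds 6 matches to 4 motifs, whereas Gm15441, Gm5089 and Hnf4aos hold none of the letters searched.

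The kept lncRNA promoters were poorer in CpG than protein-coding promoters. The rule had left out regions within 2 kb of a protein-coding TSS, so this does not extend to all lncRNA promoters. Windows were set on the 5′ end of the gene record where it lay within 1 kb of the region, and otherwise on the nearest transcript start. In the 961 windows whose TSS lay inside the region, the median ratio of observed to expected CpG was 0.312 (quartiles 0.175 and 0.488), against 0.745 (0.540 and 0.897) in 12635 windows of protein-coding genes with their TSS inside a shared region. The median GC content was 50.3% against 60.3%. By a ratio above 0.6 and a GC content above 50%, 112 of these lncRNA windows (11.7%) were CpG-rich, against 64.7% of the protein-coding ones. The motifs differed in the same way only in part. GGGCGG, which holds a CpG, was found in 19.8% of these lncRNA windows against 62.1% of protein-coding ones, and the NRF1 motif in 1.25% against 9.77%. Of motifs without CpG, AAGATGGC was also less frequent (1.56% against 4.05%), whereas CCAAT was found in 36.0% against 38.4%, TATAAA in 12.6% against 7.20%, TGANTCA in 9.47% against 4.57% and TTGCNNAA in 15.7% against 8.63%. These shares describe letters in a window and were not tested.

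**Figure D1:**
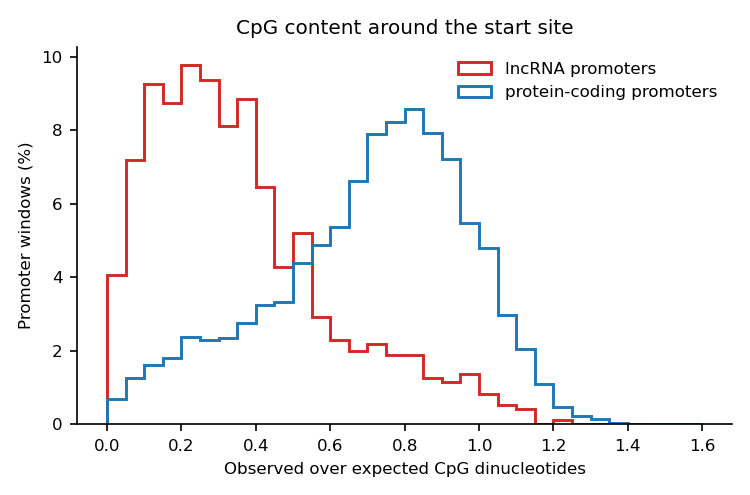
Ratio of observed to expected CpG dinucleotides (x axis) in 961 lncRNA promoter windows (red) and 12635 protein-coding promoter windows (blue) whose TSS lay inside a shared region, as percent of windows per bin (y axis). The lncRNA windows centre on 0.312 and the protein-coding windows on 0.745.

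Most of the kept lncRNA promoters lay outside protein-coding genes. The rule shapes this and the distances below. By distance from protein-coding start sites it kept 1351 of 2729 regions within 1 kb of a lncRNA TSS. Of the 1351 regions, 1003 (74.2%) lay outside protein-coding genes, 215 (15.9%) in an intron of one and 133 (9.84%) overlapped an exon of one, and the median distance to the nearest protein-coding TSS was 27475 bp. They had lower levels than protein-coding promoters and higher ones than all shared regions. Their median level was 10.2, 11.1, 11.1 and 9.79 CPM at 0, 48, 72 and 96 h, against 21.9, 21.0, 22.2 and 22.7 CPM in 16009 regions within 1 kb of a protein-coding TSS and 7.15, 8.30, 8.58 and 7.53 CPM in all shared regions. Their peaks were also shorter than those of protein-coding promoters, with a median called length of 1432 against 2083 bp at 0 h and 680 against 1199 bp at 96 h. Per kb of called length the median level was 6.56, 6.58, 8.01 and 13.1 CPM, against 8.99, 8.25, 10.1 and 16.6 CPM in protein-coding promoters and 5.99, 6.19, 7.75 and 12.6 CPM in all shared regions. Together they held 2.86%, 2.80%, 2.69% and 2.76% of the counts. The share thus stayed between 2.69% and 2.86% while total depth fell.

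On the scale of total counts, the median lncRNA promoter was close to its 0 h level after PHx, and the shares 2-fold higher were below that of all shared regions at 48 and 96 h and close to it at 72 h. The shares 2-fold lower were above those of all shared regions at each time. Log2 ratios to 0 h were taken on counts scaled to the smallest library with 5 added, in regions with a mean scaled count of at least 50, which 1224 of the 1351 lncRNA promoters reached. The median log2 ratio was 0.08, 0.09 and −0.01 at 48, 72 and 96 h, against −0.06, 0.02 and 0.11 in protein-coding promoters and 0.09, 0.14 and 0.08 in all shared regions. At 48 h, 68 lncRNA promoters (5.56%) were higher by at least 2-fold, against 5.72% of all shared regions, and 12 (0.980%) were lower, against 0.579%. At 72 h, 137 (11.2%) were higher, against 11.1%, and 54 (4.41%) lower, against 3.22%. At 96 h, 77 (6.29%) were higher, against 7.81%, and 110 (8.99%) lower, against 8.62%. The 3 comparisons share the 0 h library. With binarised counts, where a nucleus counts once for a peak and 1012 lncRNA promoters reached the minimum, the medians were −0.07, −0.18 and −0.19 and fewer regions were higher. These were 13 at 48 h (1.28%, against 1.73% of all regions), 25 at 72 h (2.47%, against 3.37%) and 8 at 96 h (0.791%, against 2.14%). The lower ones were 6 (0.593%, against 0.372%), 58 (5.73%, against 4.46%) and 91 (8.99%, against 9.14%). The balance of higher and lower regions also depended on scaling at 72 and 96 h. Protein-coding promoters of nearly equal peak length had medians of 0.25 and 0.57 at those times, and relative to them 75 lncRNA promoters were higher at 72 h (6.13%, against 6.56% of all tested regions on this scale) and 124 lower (10.1%, against 7.12%). At 96 h, 7 were then higher (0.572%, against 1.48%) and 313 lower (25.6%, against 23.3%).

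**Figure D2:**
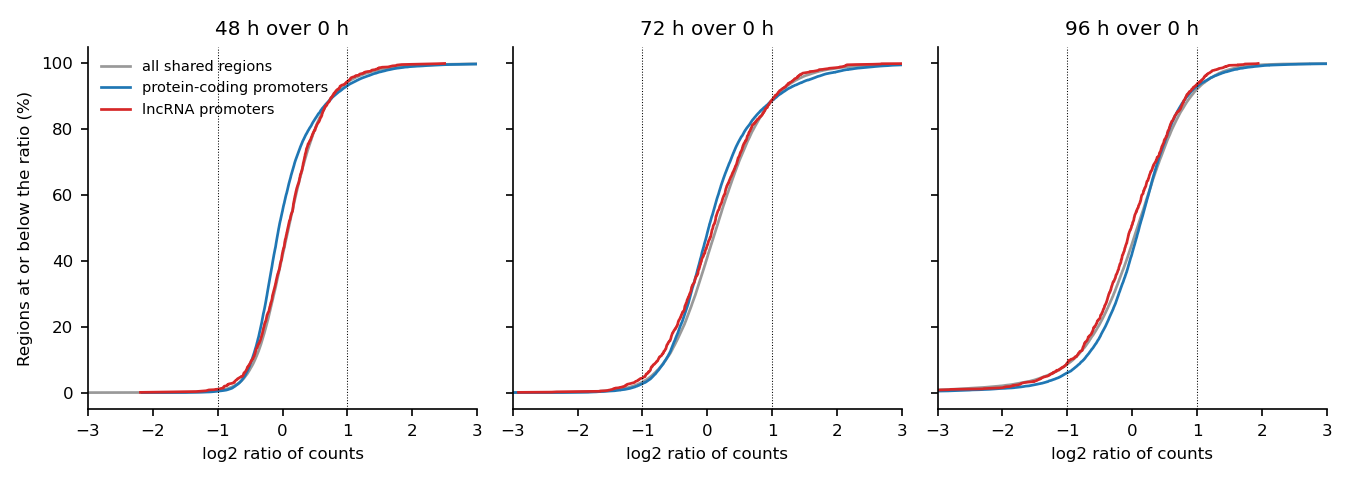
Cumulative distributions of the log2 ratio of counts to 0 h (x axis) at 48, 72 and 96 h for 1224 lncRNA promoters (red), 15348 protein-coding promoters (blue) and 53336 shared regions (grey), with the percent of regions at or below each ratio (y axis) and dotted lines at 2-fold. The red and grey curves nearly overlie, and the blue curve lies to their left at 48 h, with a median of −0.06.

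The length of the called peak moved with these ratios. Peaks were called in each library on its own, and the median called length in a lncRNA promoter was 1432, 1582, 1283 and 680 bp at 0, 48, 72 and 96 h. Across the 1224 regions, the log2 ratio of counts and the log2 ratio of called length had a Pearson r of 0.78, 0.81 and 0.81 at 48, 72 and 96 h, a description in which both quantities come from the same libraries and regions. All 68 regions that were 2-fold higher at 48 h also had a longer peak there, and all 110 that were 2-fold lower at 96 h had a shorter one, in 19 of them under 200 bp. The same held in all shared regions, for all 3050 higher at 48 h and all 4598 lower at 96 h. Of the 4598, 1086 had a peak under 200 bp. More open chromatin gives a longer peak, and a longer call takes in more counts, so the 2 cannot be told apart. Where a region had 1 peak of nearly equal length (at most 1.2 times) in both libraries compared, ratios were taken relative to the median of all such regions. Of 778 such lncRNA promoters at 48 h, 1 was 2-fold higher (0.217% of all such regions were) and 1 lower (0.0842%). Of 548 at 72 h, 11 were higher (1.27%) and 10 lower (0.988%), and of 74 at 96 h, none was higher (1.02%) and 3 were lower (3.25%). Per kb of called length, relative to the median of all tested regions, 1, 4 and 21 were higher at the 3 times (0.186%, 0.701% and 1.54% of all tested regions were) and 1, 17 and 20 lower (0.107%, 0.69% and 1.11%). Of the 21, 7 had a peak under 200 bp at 96 h and 2 of them at most 1 count. Called length or the ratio per kb is therefore given for most promoters named for a change.

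**Figure D3:**
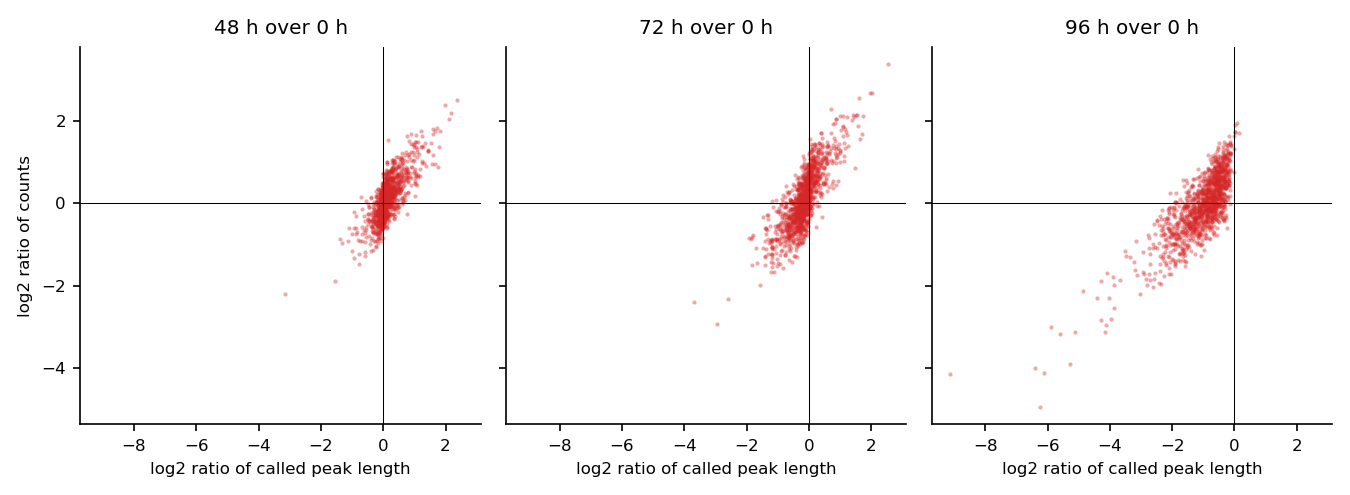
Log2 ratio of counts to 0 h (y axis) against the log2 ratio of called peak length to 0 h (x axis) at 48, 72 and 96 h, with 1 point per lncRNA promoter (1224). The points rise along a diagonal in each panel (Pearson r 0.78, 0.81 and 0.81), and at 96 h most lie left of 0 because peaks were shorter there.

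The promoters with the largest falls included neighbours of Bcl6, Klf9, Ppp1r3g and Fasn. Gm46545, a lincRNA gene 86651 bp from the promoter of Bcl6, which encodes a repressor that restrains lipid genes in the liver, had 53.4 (51.5 to 55.3), 14.2 (12.8 to 15.7), 6.79 (5.31 to 8.55) and 5.89 (4.26 to 7.93) CPM at 0, 48, 72 and 96 h. Its log2 ratio was −1.89, −2.91 and −3.11, and none of the later intervals reached that of 0 h. Its called length fell from 10285 bp to 3524, 1333 and 583 bp, and per kb the log2 ratio was −0.35, −0.29 and −0.02. Gm31583, in the same stretch of chromosome 16, had 45.1, 17.7, 16.2 and 18.6 CPM (log2 ratios −1.33, −1.46 and −1.26) with a called length of 5041, 2653, 2549 and 1665 bp. The third member whose nearest protein-coding gene was Bcl6, Gm49518, had 6.54, 3.52, 4.39 and 5.07 CPM (−0.48, −0.49 and −0.15 per kb). The Bcl6 promoter itself had 407, 195, 182 and 275 CPM, lower at every later time like its 3 lncRNA neighbours.

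A second pair lay beside Klf9, which encodes a Krüppel-like factor that responds to glucocorticoid and the circadian clock. 2410080I02Rik, 2655 bp from the Klf9 promoter on chromosome 19, had 97.5 (94.9 to 100.1), 46.9 (44.3 to 49.6), 49.1 (45.0 to 53.6) and 61.8 (56.2 to 67.7) CPM. Its called length was 5582, 4729, 4289 and 3269 bp, nearly equal at 0 and 48 h. It was the 1 lncRNA promoter that fell past 2-fold at 48 h among regions of nearly equal length, with a log2 ratio of −1.05 (−0.81 per kb), and it is named after its values were seen. AC121973.1, 68666 bp from Klf9, had 104, 37.2, 26.1 and 27.0 CPM (log2 ratios −1.48, −1.99 and −1.94) and kept a fall of −0.70, −0.75 and −0.57 per kb. The Klf9 promoter had 317, 151, 136 and 129 CPM. Its own level and those of both lncRNA promoters were highest at 0 h.

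Gm15441 is an antisense gene 5702 bp from the promoter of Txnip, which encodes a thioredoxin-binding protein that limits glucose uptake. It had 12.2 (11.3 to 13.1), 7.87 (6.84 to 9.01), 4.72 (3.5 to 6.22) and 2.88 (1.78 to 4.4) CPM. The log2 ratio was −0.61, −1.31 and −1.96, and per kb −0.56, −1.25 and −0.65, with a called length of 1735, 1678, 1325 and 337 bp. The Txnip promoter had 164, 52.7, 40.1 and 36.1 CPM. In counts both thus had their lowest level at 96 h, whereas per kb Gm15441 was lowest at 72 h. Gm15441 was among 8 lncRNA promoters lower by 2-fold at 72 h both in counts and per kb, of 1224 tested, as were 221 of the 53336 regions tested (0.414%). These 8 were chosen after the values were seen.

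Other large falls were of Gm30127, Gm11773 and Gm45044. Gm30127, inside Ppp1r3g, which encodes a glycogen-targeting subunit of protein phosphatase 1, had 37.0, 15.6, 11.5 and 16.9 CPM over a called length of 2531, 1489, 1093 and 853 bp. The Ppp1r3g promoter had 32.1, 13.9, 14.9 and 18.8 CPM. Gm11773, 4012 bp from the promoter of Fasn, the fatty acid synthase gene, had 52.5, 23.7, 21.7 and 18.8 CPM over 5608, 4452, 2459 and 1067 bp. The Fasn promoter differed in course, with 717, 307, 585 and 462 CPM, so that it was higher at 72 h than at 48 h whereas Gm11773 was not. Gm45044, 115747 bp from Irs2, the gene of an insulin receptor substrate, had 14.4, 9.08, 2.59 and 4.93 CPM, with a log2 ratio of −2.32 at 72 h, where its called length was 511 bp against 3094 bp at 0 h and its ratio per kb was −0.05. The Irs2 promoter had 366, 351, 289 and 529 CPM. Gm45044 was 1 of 6 members nearest to Irs2, whose log2 ratios went both ways, from −0.72 to 0.75 at 48 h and between −2.32 and 0.41 at 72 h.

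Gm29529, an antisense gene overlapping an exon of Rgs8, fell with 73.3, 32.8, 24.4 and 28.0 CPM over 6385, 4862, 3566 and 2046 bp. Its log2 ratio at 72 h was −1.57 in counts and −1.06 per kb, whereas the promoter of Rgs8, an inhibitor of G protein signalling, had 3.23, 6.14, 7.03 and 3.90 CPM. Gm44744, 2706 bp from the proteasome gene Psmc4, had 23.6, 11.9, 8.63 and 9.52 CPM and was 2-fold lower at 72 h and at 96 h on both scales (log2 −1.42 and −1.28 in counts, −1.20 and −1.26 per kb). Gm47352, Gm45733 and Gm12798 completed the 10 largest falls at 48 h with Gm13068, whose log2 ratios were −1.28, −1.18, −1.16 and −2.19. The 5 largest falls at 72 h were of Gm46545, Gm13068, Gm45044, AC121973.1 and Gm30127. The fall of Gm13068 in counts (17.4 CPM at 0 h, 3.54 at 48 h) came with a called length of 6143 bp at 0 h and 688 bp at 48 h, and per kb the sign was opposite (0.97). Gm12798 was 1 of 4 members nearest to Ak4, an adenylate kinase gene, and 3 regions of 0610043K17Rik were the others. All 4 had log2 ratios below 0 at each later time, from −0.43 to −1.16 at 48 h, and the Ak4 promoter had 121, 52.8, 59.8 and 52.6 CPM. Their called length was also shorter, going from 17083, 1607 and 1382 bp at 0 h to 9811, 1236 and 865 bp at 48 h in the regions of 0610043K17Rik and from 2968 to 1467 bp in Gm12798. Per kb the 4 log2 ratios were near 0, between −0.06 and −0.23 at 48 h. At 72 h they lay between −0.01 and −0.25, and at 96 h between −0.01 and −0.10.

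**Figure D4:**
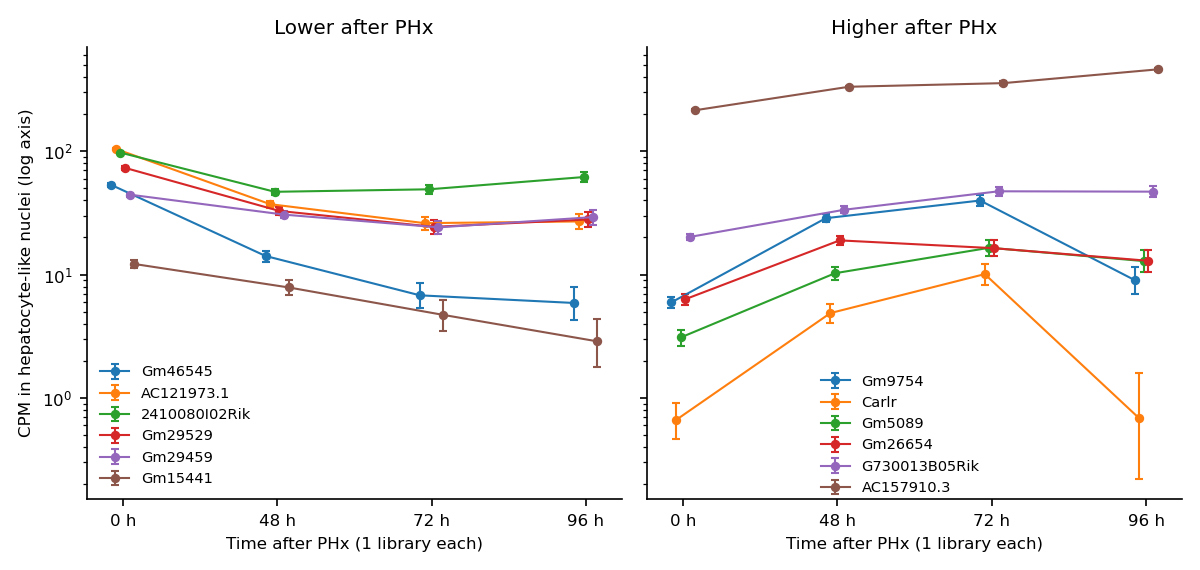
CPM (y axis, log scale) of 12 lncRNA promoters in hepatocyte-like nuclei by hours after PHx (x axis), with 1 library per time and 95% Poisson intervals of counts divided by 2 as bars. The 6 promoters at left were lower at every later time than at 0 h, and at right Carlr and Gm9754 were lower at 96 h than at 48 and 72 h while AC157910.3 was highest at 96 h.

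The 10 largest rises at 48 h were of promoters with 0.663 to 6.25 CPM at 0 h, all below the median lncRNA promoter. Gm13388, an antisense gene in an intron of Usp6nl, had 1.85 (1.51 to 2.24), 12.0 (10.7 to 13.4), 13.7 (11.6 to 16.1) and 2.67 (1.62 to 4.15) CPM, a log2 ratio of 2.5 at 48 h. Its peak was 649, 3335, 2539 and 362 bp long, and per kb the log2 ratio was 0.14 at 48 h. Carlr, which encodes a lncRNA of the NF-κB response, had 0.663 (0.468 to 0.911), 4.88 (4.07 to 5.79), 10.1 (8.27 to 12.2) and 0.685 (0.222 to 1.60) CPM. Its log2 ratio was 2.38 at 48 h and 3.38 at 72 h, the largest of any lncRNA promoter, with a peak of 398, 1573, 2328 and 106 bp. In hepatocyte-low nuclei, described below, Carlr had 11.0 CPM and Gm13388 11.7 CPM at 0 h. In counts both promoters were thus highest at 48 and 72 h, when their called peaks were also longest. Their intervals at 96 h overlapped those of 0 h.

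Gm9754, Gm26872, Gm45897, BC043934, Gm32351, Mir9-3hg, Gm13441 and Gm35409 made up the rest of the 10, with log2 ratios of 1.69 to 2.20 at 48 h. Gm9754 had 5.95, 28.7, 39.9 and 9.04 CPM over 2088, 9385, 8515 and 714 bp, and its nearest protein-coding promoter, Tesc, had 4.25, 16.1, 30.6 and 9.86 CPM. Mir9-3hg, the host of a neural microRNA, had 0.963, 4.07, 7.31 and 3.01 CPM. BC043934 had 5.02, 18.4, 22.4 and 2.53 CPM, and in the hepatocyte-low nuclei of the 0 h library it had 66.6 CPM. There Gm45897 had 19.2, Gm32351 12.4 and Mir9-3hg 2.06 CPM, against 6.25, 1.61 and 0.963 CPM in hepatocyte-like nuclei. Gm9754, Gm26872, Gm13441 and Gm35409 were lower there than in hepatocyte-like nuclei. Whether a few hepatocyte-low nuclei among the hepatocyte-like ones took part in these rises was not tested. The peaks of all 10 were longer at 48 h than at 0 h, and per kb their log2 ratios were between −0.07 and 0.55.

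Some rises were past 2-fold on more than 1 scale, though these scales share the same counts. The 11 at 72 h among regions of nearly equal length were also past 2-fold in counts. This is built in, because a median of 0.29 was subtracted from their log2 ratios in counts. Gm26654, on chromosome 3 outside protein-coding genes, was the 1 lncRNA promoter more than 2-fold higher at 48 h in counts, per kb and among regions of nearly equal length. It had 6.32 (5.68 to 7.01), 18.9 (17.3 to 20.7), 16.4 (14.0 to 19) and 12.9 (10.5 to 15.8) CPM over 1734, 1950, 1815 and 1030 bp. Its log2 ratio was 1.53, 1.33 and 1.0 in counts and 1.36, 0.93 and 0.69 per kb. Transfer RNA genes were not searched for in the named regions. Whether the level of Gm26654 comes from its lncRNA promoter alone was therefore not tested. Of the 53336 regions tested, 89 (0.167%) were 2-fold higher at 48 h in counts and per kb, and 338 (0.634%) at 72 h. At 72 h, 4 lncRNA promoters passed 2-fold on both: Gm5089, Gm29340, Gm14486 and Gm26771, with log2 ratios of 2.29, 1.55, 1.43 and 1.16 in counts and 1.26, 1.18, 1.04 and 1.01 per kb. In the hepatocyte-low nuclei of the 0 h library Gm29340 had 58.4 CPM against 9.53 CPM in hepatocyte-like nuclei and Gm14486 had 18.5 against 2.43 CPM, and the part of such nuclei in these rises was not tested. Gm26654, Gm5089 and Gm26771 had 2.75, 4.12 and 3.43 CPM there. Gm26654 and these 4, Gm5089 excepted, are named after their values were seen. Gm5089, an antisense gene on chromosome 14, had 3.09 (2.65 to 3.59), 10.3 (9.08 to 11.6), 16.5 (14.2 to 19.1) and 12.9 (10.4 to 15.8) CPM over 1027, 1738, 1671 and 1087 bp. Its log2 ratio at 96 h, 1.94, was the largest at that time in counts, and it was 0.83 relative to the median of all regions of nearly equal length at 0 and 96 h.

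At 96 h the other large rises were of Gm30790, 4930404O17Rik, Gm33682 and Gm42705, with log2 ratios of 1.91, 1.74, 1.73 and 1.72. Gm42705 had 7.59, 12.4, 25.8 and 25.7 CPM over 1017, 1444, 1674 and 1123 bp. The 5 largest rises at 96 h had a called length at that time between 1.01 and 1.1 times that of 0 h, whereas the median lncRNA promoter had a log2 length ratio of −0.86. All shared regions of nearly equal length at 0 and 96 h had a median log2 ratio of 1.11, and none of the 74 such lncRNA promoters was 2-fold above it. The 5 largest falls were of Gm12972, Gm43118, Gm10532, Gm11210 and Adap2os, with log2 ratios of −4.93, −4.15, −4.12, −3.99 and −3.88. Their called peaks at 96 h were 52, 4, 107, 34 and 40 bp long, against 1539 to 7471 bp at 0 h. Gm10532 had 10 counts there, Gm12972 and Gm11210 had 1 each, and ratios per kb of so few counts cannot be read. Gm43118 and Adap2os had no count at 96 h, with an upper limit of 0.505 CPM. They had 5.72 and 4.71 CPM at 0 h, but their peaks at 96 h were too short to compare.

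Among the 19 tested lncRNA promoters with 1 peak of nearly equal length in every library, counts were compared relative to the median of all 875 tested regions of that kind, which had log2 ratios of 0.14, 0.45 and 0.83 at 48, 72 and 96 h. Gm29459, a lincRNA gene on chromosome 13, fell furthest. It had 44.5 (42.8 to 46.3), 30.6 (28.6 to 32.8), 24.1 (21.3 to 27.3) and 29.2 (25.4 to 33.4) CPM, or −0.67, −1.32 and −1.43 relative to that median. It was the 1 member of the 19 past 2-fold, lower at 72 h (1.49% of all such regions were) and at 96 h (1.83%), and none was 2-fold higher at 48, 72 or 96 h (0.457%, 3.77% and 2.74%). C920006O11Rik, whose region holds Rn7sk, the gene of the 7SK RNA that holds back transcription elongation, had 37.5, 31.2, 26.5 and 37.0 CPM, or −0.40, −0.95 and −0.85. Gm10010, Bach2os and AC133525.3 were the next lowest at 48 h (−0.35, −0.26 and −0.25), and at 96 h Bach2os, C030014I23Rik and Gm45889 were (−0.66, −0.64 and −0.41).

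G730013B05Rik, a lincRNA gene on chromosome 16, had the highest ratio in that set at 48 h. It had 20.2 (19.1 to 21.4), 33.6 (31.4 to 35.8), 47.4 (43.3 to 51.7) and 47.0 (42.2 to 52.3) CPM over 2414, 2427, 2420 and 2165 bp. Relative to the median its log2 ratio was 0.58, 0.76 and 0.38. In the hepatocyte-low nuclei of the 0 h library G730013B05Rik had 64.6 CPM, above its level in the hepatocyte-like nuclei, and the part of such nuclei in its ratio was not tested. 1700054K19Rik had 12.0, 18.0, 22.6 and 32.7 CPM, or 0.43, 0.44 and 0.60, and 36.4 CPM in those hepatocyte-low nuclei. At 96 h its ratio was above that of G730013B05Rik. At 48 h 2700038G22Rik, AC122818.1 and Gm35326 followed (0.27, 0.24 and 0.21), and at 96 h Gm35326, AC163221.1 and AC133525.3 (0.58, 0.50 and 0.24). AC133525.3 was thus among the lowest ratios at 48 h and the highest at 96 h.

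By CPM summed over the region, without regard to length, the highest lncRNA promoters were long regions or repeated loci. Gm26917 had 2583 (2570.1 to 2597), 3098 (3076 to 3119), 3124 (3091 to 3158) and 4363 (4316 to 4412) CPM, the highest of all shared regions in every library. Its region on chromosome 17 holds an annotated rRNA gene and the 18S-related sequence Rn18s-rs5, so reads of the many copies of ribosomal DNA can map here and its level is uncertain. Its peak was 6281, 6281, 6275 and 6260 bp long, and relative to regions of nearly equal length its log2 ratio was 0.12, −0.18 and −0.07. Neat1, the scaffold RNA of paraspeckles, had 1307, 1148, 1321 and 1474 CPM over 47240, 47260, 46117 and 39840 bp. Malat1, an abundant nuclear RNA, had 221, 204, 151 and 169 CPM over 13647, 12359, 11805 and 10583 bp. Lncpint, a p53-induced lncRNA, had 1304, 1108, 733 and 608 CPM, over a called length that shrank from 173659 to 46565 bp, and its region holds Mir29a and Mir29b-1.

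AC157910.3 had a higher CPM at each later time, and its region holds Mir122, the gene of the most abundant microRNA of the hepatocyte. It had 215 (211 to 218), 333 (326 to 340.2), 356 (345 to 368) and 461 (446 to 477) CPM, and the intervals of the 4 libraries did not overlap. Its log2 ratio was 0.63, 0.73 and 1.1 in counts and 0.64, 0.56 and 0.52 per kb, with a called length of 13582, 13533, 12148 and 9787 bp. Relative to protein-coding promoters of nearly equal length, the ratio was 0.66, 0.48 and 0.53, so that on this scale and per kb the ratio was highest at 48 h. In the hepatocyte-low nuclei of the 0 h library it had 41.2 CPM. Gm26608, 13565 bp from Insig1, a sterol-sensing brake on cholesterol synthesis, went the other way with 372, 218, 221 and 261 CPM (−0.59, −0.82 and −0.57 per kb), as did 1810008I18Rik with 199, 109.9, 106 and 99.9 CPM (−0.70, −0.92 and −1.0 per kb). Hnf4aos, antisense in an intron of Hnf4a, the master transcription factor of hepatocytes, had 160.2, 141, 117 and 117 CPM, while the nearest Hnf4a promoter had 87.5, 92.9, 104 and 135 CPM. AC127342.1 and 9030616G12Rik completed the 10 highest, with 96.7 and 85.1 CPM at 96 h, each lower than at 0 h.

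Promoters of lncRNA genes with known roles made lists of a few genes each. Of all tested regions, 5.72%, 11.1% and 7.81% were 2-fold higher and 0.579%, 3.22% and 8.62% 2-fold lower at 48, 72 and 96 h, so that a count of 0 in lists this short does not set them apart. Of the imprinted lncRNA genes, Airn, Kcnq1ot1 and Meg3 were members, and none was past 2-fold at any time. Airn, which silences Igf2r in cis, had 14.4, 23.1, 21.2 and 17.5 CPM, Kcnq1ot1 had 13.2, 13.6, 11.0 and 9.58 CPM, and Meg3 had 7.28, 5.69, 6.56 and 7.87 CPM. Of the 5 tested promoters of small nucleolar RNA hosts (Snhg6, Snhg12, Snhg20, Snhg7os and Epb41l4aos), which serve ribosome assembly, none was past 2-fold, and the median log2 ratio was −0.31, −0.36 and 0.02. Snhg12 had 23.9, 17.7, 15.0 and 14.4 CPM, the lowest ratio of the 5 at 96 h (−0.72). In all tested regions the median was 0.09, 0.14 and 0.08.

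Of 6 tested promoters of microRNA hosts, 1 was 2-fold higher at 48 h, 2 at 72 h and 2 at 96 h, and none was lower, with medians of 0.67, 0.80 and 0.74. Of all tested regions 5.72%, 11.1% and 7.81% were 2-fold higher, and 6 regions are too few to set against these shares. Mir17hg, host of the growth-promoting miR-17-92 cluster, had 57.4 (55.4 to 59.4), 60.4 (57.5 to 63.4), 89.2 (83.6 to 95.1) and 119.7 (112 to 128) CPM over 3162, 3216, 3181 and 2811 bp. Its log2 ratio of 0.07, 0.63 and 1.06 shrank to −0.07, 0.18 and 0.23 relative to regions of nearly equal length in every library, and at 96 h it was −0.06 relative to those of nearly equal length in the 2 libraries. Mir155hg, host of a microRNA of immune activation, had 10.9, 14.9, 21.1 and 17.4 CPM (log2 0.44, 0.93 and 0.66) and 16.5 CPM in the hepatocyte-low nuclei at 0 h. Mir670hg had 3 regions with log2 ratios from −0.34 to 0.98 at 48 h. The region of Mir124a-1hg was below the count minimum.

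Of 7 tested regions of the p53 and stress list (Lncpint, Trp53cor1, Pvt1 and Gm26917), 2 were lower past 2-fold at 96 h, Lncpint (−1.1) and 1 of the 2 regions of Trp53cor1 (−1.12), which encodes lincRNA-p21, against 8.62% of all tested regions. Per kb their ratios were −0.26 and −0.19, and with binarised counts, where a nucleus counts once, that of Lncpint was 2.06. The Trp53cor1 region at its start, chr17:29077202-29079736, had 16.6, 16.1, 13.0 and 14.4 CPM, and the other had 7.09, 7.23, 4.67 and 3.08 CPM. The 3 tested regions of Pvt1, the neighbour of Myc, had log2 ratios between −0.40 and 0.04, and the most accessible had 22.5, 22.5, 20.8 and 17 CPM. Of the 4 widely expressed nuclear lncRNA genes (Neat1, Malat1, Kcnq1ot1 and 2900097C17Rik) none was past 2-fold. The 2 partners of liver factors were Hnf4aos and 9030622O22Rik, 68026 bp from Foxa2, with 54.5, 65.8, 53.1 and 44.2 CPM. Hoxd3os1 was the 1 member of the Hox antisense list, with 5.72, 6.40, 11.4 and 6.85 CPM.

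lncRNA promoters and their nearest protein-coding promoters changed partly together. Over 971 lncRNA promoters whose nearest protein-coding gene (806 genes) had a tested promoter region, at a median distance of 28423 bp, the log2 ratios had a Pearson r of 0.31, 0.41 and 0.40 at 48, 72 and 96 h. The points share libraries and, within the pair, a chromosomal neighbourhood, so r is a description. Beside Igfbp7, a secreted modulator of growth factor signalling, 3 members were higher in counts at every later time. Gm34728 had 9.37, 16, 18.6 and 19 CPM over 1515, 1626, 1751 and 1179 bp, Gm34648 had 5.17, 9.38, 12.2 and 11.5 CPM over 823, 1326, 1500 and 732 bp, and 1700017L05Rik had 4.11, 5.46, 7.12 and 8.08 CPM over 652, 660, 899 and 485 bp. Per kb the log2 ratio at 48, 72 and 96 h was 0.64, 0.42 and 0.30 in Gm34728, 0.13, −0.01 and 0.22 in Gm34648 and 0.36, −0.05 and 0.29 in 1700017L05Rik. The Igfbp7 promoter had 6.45, 10.5, 14.2 and 16.4 CPM. In the hepatocyte-low nuclei of the 0 h library 1700017L05Rik had 16.5, Gm34648 8.24 and Gm34728 1.37 CPM. The part of such nuclei in these ratios was not tested. Genes beside Igfbp7, Bcl6, Klf9, Txnip and Ak4 were picked for their values.

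Among the 895 tested lncRNA promoters whose TSS lay inside the region, fewer CpG-rich than CpG-poor ones were 2-fold lower at 72 and 96 h, and the difference was not tested. At 72 h, 1 of 108 CpG-rich promoters (0.926%) and 40 of 787 CpG-poor ones (5.08%) were, against 3.22% of all tested regions. None of the 108 was 2-fold lower at 96 h, against 86 of the 787 (10.9%) and 8.62% of all tested regions, and the medians were 0.17 and −0.10. At 48 h the medians were 0.01 and 0.05, and at 72 h 0.04 and 0.02. The CpG-rich promoters also had the higher level, with a median mean CPM of 19.2 against 12.2. Called length moved likewise at 96 h, with a median log2 length ratio of −0.71 in CpG-rich and −0.92 in CpG-poor promoters. Among those with 1 peak of nearly equal length at 0 and 72 h the median log2 ratio was 0.37 in 56 CpG-rich and 0.20 in 324 CpG-poor promoters. At 0 and 96 h the order was opposite, with a median log2 ratio of 0.57 in 10 CpG-rich and 0.94 in 40 CpG-poor promoters.

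The nuclei also differed among themselves in lncRNA promoters. In 2 clusters hepatocyte markers were low, and these hepatocyte-low nuclei numbered 297, 215, 287 and 82 at 0, 48, 72 and 96 h. One cluster was led by Ehd3, Fbxl7 and Gja1 and had 4 of 9 endothelial markers at least 2-fold up, and the other by Hspa1a and Evi2. Both kinds of nuclei of a library were counted over the same peaks, so called length does not differ between them. The clusters were made from the same nuclei, so what follows is a description. In the 0 h library, of 684 lncRNA promoters with at least 20 counts observed or expected in hepatocyte-low nuclei, 143 (20.9%) were 2-fold higher there and 213 (31.1%) 2-fold lower, with 2 CPM added. In all shared regions compared the same way, 22.3% were higher and 25.2% lower, and in protein-coding promoters 23.7% and 11.2%. Of the 213 lower at 0 h, 36 also had 20 counts observed or expected at both 48 and 72 h, and 16 of these were 2-fold lower at both. Of the 143 higher, 26 had, and 9 of these were 2-fold higher at both. These are 44.4% and 34.6%, and the same shares were 51.7% and 41.4% in all shared regions and 53.3% and 36.9% in protein-coding promoters. Without the minimum at 48 and 72 h, 98 of the 213 and 36 of the 143 kept the 2-fold difference at both. This was not counted over all shared regions, so these numbers do not set lncRNA promoters apart.

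Gm5444 stood out among those higher in hepatocyte-low nuclei, with 58.4 (42.2 to 78.8) CPM there against 1.44 CPM in hepatocyte-like nuclei at 0 h. At 48 and 72 h it had 29.0 and 32.4 CPM against 1.28 and 2.41 CPM. Gm29264 had 51.5, 48.3 and 47.5 CPM against 2.42, 3.95 and 6.56 CPM at 0, 48 and 72 h, and Gm26887 had 82.4, 82.1 and 60.5 CPM against 7.66, 11.1 and 14.1 CPM. All 3 were higher in hepatocyte-low than in hepatocyte-like nuclei in each of these libraries. In the other direction, Gm12354 and Gm10390 had no count in hepatocyte-low nuclei at 0 h, with an upper limit of 5.07 CPM. In hepatocyte-like nuclei they had 30.1 and 24.2 CPM. The more accessible of the 2 regions of Ctcflos had 2.75 (0.333 to 9.92) CPM against 54.5 CPM at 0 h, but 16.1 against 43.6 CPM at 48 h and 17.3 against 34.1 CPM at 72 h. Gm47465 had 1.37 (0.0348 to 7.65) CPM against 41.0 CPM at 0 h, 6.44 against 30.9 CPM at 48 h and 4.32 against 24.1 CPM at 72 h. At 48 and 72 h Gm12354 had 3.22 and 0 CPM against 28.5 and 21.6 CPM, and Gm10390 had 0 CPM at both against 20.1 and 32.7 CPM. At 96 h, with 82 hepatocyte-low nuclei, Gm10390 had 35.0 (4.24 to 126) CPM there against 31.3 CPM in hepatocyte-like nuclei, which is 4 counts with an interval too wide to place it above or below. Gm12354, Gm47465 and Ctcflos had no count in hepatocyte-low nuclei at 96 h, against 27.7, 30.7 and 35.5 CPM. The interval for no count reaches 64.5 CPM there, too wide to place them above or below. These rest on 0 to 10 counts in hepatocyte-low nuclei. The promoters of this paragraph were chosen for these values.

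**Figure D5:**
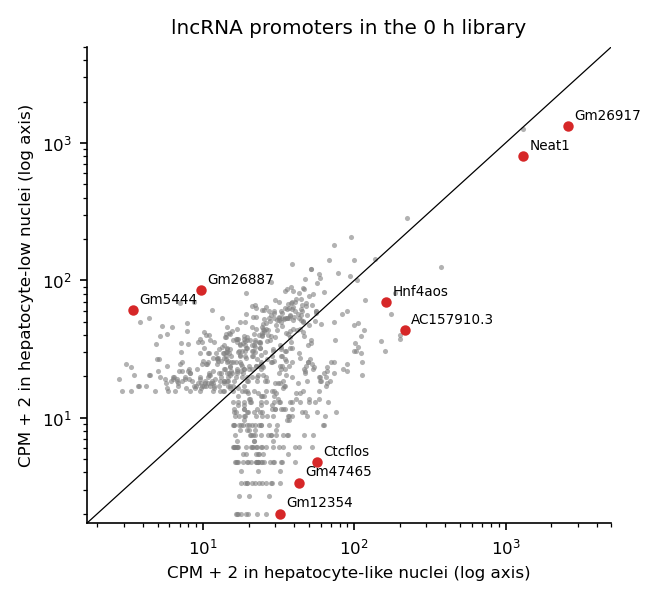
CPM + 2 in hepatocyte-low nuclei (y axis, log scale) against CPM + 2 in hepatocyte-like nuclei (x axis, log scale) for 684 lncRNA promoters of the 0 h library, with the line of equal levels. Gm5444 and Gm26887 lie far above the line, and Gm12354, Gm47465 and Ctcflos far below it.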

How the data were processed

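Nuclei of hepatocyte preparations before and 48, 72 or 96 h after PHx were profiled by droplet scATAC-Seq, with 1 library per time point. The authors mapped reads to mm10 (submitters' processing notes) and deposited, per library, a peak list, barcodes and a matrix of cut-site counts per peak and barcode from Cell Ranger ATAC (version 1.1.0 in the file headers), filtered to called cells. Peaks were called in each library separately, so the bases counted in a region differ between libraries. Between 87.3% and 88.6% of the values above 0 were even.

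Peaks were merged and counts summed by region. Nuclei with at least 1000 counts were clustered (30 components of a singular value decomposition of binarised counts, 30 neighbours, Leiden resolution 0.5), and hepatocyte-like nuclei were summed per library, with 14606237 to 113192485 counts in shared autosomal regions. No doublet caller was run. CPM and log2 ratios were computed with 5 added to counts scaled to the smallest library, and a ratio was read only where the mean scaled count was at least 50 (3.42 CPM). The 2-fold threshold is a size and not a test. Counting was tested on simulated data. Python 3.11.15, numpy 2.4.6, pandas 2.3.3, scipy 1.17.1, scikit-learn 1.9.0, leidenalg 0.10.2, pysam 0.24.0, samtools 1.23.1 and matplotlib 3.10.9 were used. Sequences came from RefSeq GRCm38.p6.

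Promoters were named if among the 10 largest changes in each direction at 48 h, the 5 largest at 72 or 96 h, the 5 largest at 48 or 96 h among regions of nearly equal length, the 10 highest, or in a list of known genes. Others were chosen after their values were seen and are given as such. The members and lists were chosen with earlier results of these data known. Alternatives covered nuclei, depth, binarised counts, scaling, thinning, pseudocount, count minimum, called length and the definition of a promoter. Sex chromosomes were not used here.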

Additional observations from a re-analysis of the deposited data

Results flagged for a closer look

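Promoters of 4 genes were more than 2-fold higher at 48 h and more than 2-fold lower at 96 h than at 0 h, which is 0.327% of the 1224 tested, and 194 of all 53336 tested regions (0.364%) had the same pattern. Adap2os had a log2 ratio of 1.37 at 48 h and −3.88 at 96 h, Gm20052 had 1.24 and −2.13, Gm43118 had 1.18 and −4.15, and Gm47639 had 1.52 and −3.12. Gm47639 had 9.21, 27.1, 21.8 and 0.753 CPM at 0, 48, 72 and 96 h, and Gm20052 had 3.54, 8.85, 10.8 and 0.548 CPM. The difference between the times was not tested, since each is 1 library. In the 48 h library Adap2os had 57.9 CPM in hepatocyte-low nuclei against 12.7 CPM in hepatocyte-like ones. Gm20052, Gm43118 and Gm47639 had 9.65, 8.05 and 22.5 CPM in those hepatocyte-low nuclei. The part of such nuclei in the 48 h ratios was not tested. The called peaks of Adap2os, Gm20052, Gm43118 and Gm47639 at 96 h were 40, 50, 4 and 102 bp long. Adap2os and Gm43118 had 0 counts there, so the sizes of their ratios come from the pseudocount, and Gm20052 and Gm47639 had 8 and 11 counts. Per kb of called length, in the same order, the log2 ratios were 0.08, 0.36, 0.47 and 0.68 at 48 h, so none of the 4 was 2-fold higher on that scale. Peaks this short and counts this few at 96 h give no ratio per kb that can be read.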

How the results depend on the processing

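The number of lncRNA promoters was 1351, and 976 to 1438 under other definitions. As reported, the median log2 ratio at 48, 72 and 96 h was 0.08, 0.09 and −0.01, with 68, 137 and 77 regions 2-fold higher and 12, 54 and 110 lower. With binarised counts the medians were −0.073, −0.18 and −0.19, with 13, 25 and 8 higher and 6, 58 and 91 lower. Scaling to protein-coding promoters of nearly equal length gave medians of −0.16 at 72 h and −0.58 at 96 h, 75 and 7 higher and 124 and 313 lower. A pseudocount of 20 gave 43 higher at 48 h and 42 at 96 h. Per kb, medians were −0.029, −0.045 and −0.069, with 1, 4 and 21 higher and 1, 17 and 20 lower. With 1 peak of nearly equal length (1.2 times) in every library (19 regions), medians were −0.066, −0.017 and −0.24, with 0 higher and 0, 1 and 1 lower, and at 1.1 times (2 regions) −0.36, −0.92 and −0.90, with 0 higher and 0, 1 and 1 lower. In the 2 libraries compared, an alternative chosen after seeing the data, medians were −0.00072, −0.013 and −0.17, with 1, 11 and 0 higher and 1, 10 and 3 lower. Regions that contain the TSS had medians of 0.042, 0.0204 and −0.065, with 46 higher at 96 h.

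Of 75 named promoters, per kb 33 kept their direction and side of 2-fold, 33 fell short, 2 passed it and 7 reversed: Gm10532 (0.95), Gm12972 (0.24), Gm43118 (3.93), Gm11210 (1.37) and Adap2os (0.33) at 96 h, and Gm13068 (0.96) and 1 region of Mir670hg (−0.14) at 72 h. Binarised counts reversed Lncpint at 96 h (2.06) and AC127342.1 at 72 h (0.0496). Nearly equal length in the 2 libraries reversed Mir17hg (−0.0552) and AC133525.3 (−0.0469) at 96 h. Gm43118 and Adap2os have no count at 96 h and Gm12972 and Gm11210 1 each, so the sign of these 4 per kb comes from the pseudocount. The cause was not tested for the others, except that per kb divides by the called length. No paired analysis was possible because each time point has 1 library. Depth limits the 96 h values most, since the hepatocyte-like nuclei of that library hold 14606237 counts in shared autosomal regions. Small promoters there rest on few counts.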
